A study of Mus musculus with 4 samples.

Results

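The major urinary protein (Mup) genes are 10 mouse liver genes, Mup1, Mup3, Mup7, Mup9, Mup10, Mup12, Mup17, Mup18, Mup20 and Mup21, taken by symbol from the 32285 genes of the count tables. They were picked with earlier results of these tables known and on the levels given here, so those levels are a description and carry no test. A further 12 genes with a Mup symbol were measured and are given only for comparison. The study profiled frozen liver sections with Visium, a spatial assay in which each spot of a slide is a small region of tissue that can hold several cells. Its title concerns a niche marked by the oncogene MYCN during liver tumour formation, a gene not examined here. There were 2 sections of the STAM model, which represents liver cancer on a background of metabolic steatohepatitis and type I diabetes, named STAM20w and STAM16w for 20 and 16 weeks. There were 2 sections of the DEN+CCl4 model, which represents liver cancer after DNA damage with fibrosis, named DEN30w and DEN22w for 30 and 22 weeks. Each section stands alone for its model and time, no untreated liver was among the samples used here, and the labels give no strain, sex or animal number and do not say from which event the weeks are counted.

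Major urinary proteins are small lipocalins, barrel-shaped carriers of volatile ligands, that hepatocytes secrete into blood and the kidney passes into urine, where they hold and release scent. In the mouse liver their RNA is among the most abundant, is higher in males than in females, and depends on pulses of growth hormone acting through its receptor, the kinase JAK2 and the transcription factor STAT5B. The genes lie side by side in one cluster, and its central copies are nearly the same in sequence. Mup20 encodes darcin, the male urinary protein that attracts females.

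The cluster occupied 2.19 Mb of chromosome 4 in GRCm38.p6, from Mup4 at 59956804 to Mup21 at 62150841, by RefSeq annotation. Mup7 (chr4:60066469-60070475), Mup9 (chr4:60418046-60422085), Mup1 (chr4:60498012-60501960), Mup10 (chr4:60578260-60582276), Mup12 (chr4:60737381-60741416), Mup17 (chr4:61591929-61595865) and Mup18 (chr4:61670177-61674132) lie in its central stretch. Mup20 (chr4:62011337-62054143), Mup3 (chr4:62083476-62087317) and Mup21 (chr4:62147832-62150841) lie at its far end. RefSeq promoter windows, which run from 250 bases before to 50 bases after a transcript start that need not be the gene's outer end, were at hand for 7 of the 10 genes and not for Mup1, Mup12 and Mup20. The stretches of 110 bases shown here come from those windows on the minus strand, upstream of the gene, and are chosen to show how alike the central copies are and how far Mup3 and Mup21 stand from them. Capitals mark the reverse complement of the octamer ATTGATTT, which fits the binding site of HNF6, a liver transcription factor encoded by Onecut1. The stretches are chr4:61595966-61596075 for Mup17, chr4:60582295-60582404 for Mup10, chr4:62087402-62087511 for Mup3 and chr4:62150920-62151029 for Mup21.
Mup17: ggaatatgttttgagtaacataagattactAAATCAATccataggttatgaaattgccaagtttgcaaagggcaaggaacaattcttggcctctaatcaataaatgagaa
Mup10: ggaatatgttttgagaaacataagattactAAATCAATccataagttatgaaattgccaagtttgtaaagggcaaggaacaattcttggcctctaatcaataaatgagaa
Mup3: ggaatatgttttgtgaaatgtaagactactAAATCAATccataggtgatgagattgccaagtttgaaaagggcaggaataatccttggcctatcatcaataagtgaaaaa
Mup21: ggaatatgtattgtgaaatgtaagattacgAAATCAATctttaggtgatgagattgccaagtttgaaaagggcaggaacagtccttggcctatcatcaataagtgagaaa

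In a global alignment these stretches were identical at 97.3% of columns between Mup17 and Mup10 and at 92.7% between Mup3 and Mup21, but at only 85.6% between Mup17 and Mup3 and 83.8% between Mup17 and Mup21. Mup17 and Mup18 agreed at 99.1%. The octamer, read on both strands, was present in 7 of 7 of these genes and in 14 of 14 Mup windows in the table, against 394 of all 32851 windows of 300 bases, or 1.20%. It was searched after the sequences had been read, and the copies descend from common sequence, so its presence in each is one observation and not 14. The STAT5 palindrome TTCNNNGAA was in 0 of 7 windows, against 8.30% of all windows. The letters TATATAA were in 6 of 7, against 3.24% of all windows.

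The kept spots numbered 2080 to 2968 per section, with 20700642 to 40008457 unique molecular identifiers (UMIs, single captured RNA molecules) per section and a median of 7302.5 to 12761 UMIs per spot. Levels are given as CPM, the share of a section's, zone's or region's UMIs that a gene took, scaled to a total of 1000000, and their 95% Poisson intervals cover counting error only. Visium counts molecules at their poly(A) end, so UMI shares of different Mup genes are not divided by transcript length. Reads that match several near-identical copies can be dropped or divided in counts of this kind, so values of single Mup genes are uncertain and the sum is a safer measure. All 12 hepatocyte marker genes were found in every section. A lower level in a spot, zone or section can mean fewer hepatocytes or less Mup RNA in each, and these cannot be told apart here. As a check on sex, the Y-linked gene Ddx3y had 592 to 1168 UMIs in every section and the female-expressed RNA Xist had 0 or 1. Between 1635 and 2091 spot barcodes were shared by any pair of sections, as the slides print the same set.

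The 10 genes together made up 0.385% of all UMIs in STAM20w, 8.66% in STAM16w, 0.433% in DEN30w and 1.39% in DEN22w. Their summed level was 3847 CPM in STAM20w, 86638 CPM in STAM16w, 4331 CPM in DEN30w and 13943 CPM in DEN22w. STAM16w stood far above the other sections, and both later sections stood below both earlier ones. Over all 22 Mup genes the sum reached 120823 CPM in STAM16w, against 4808 CPM in STAM20w, 4375 CPM in DEN30w and 14142 CPM in DEN22w. Albumin, the main secreted protein of hepatocytes, did not follow this order: Alb had 23308 CPM in STAM20w, 11853 CPM in STAM16w, 25529 CPM in DEN30w and 35552 CPM in DEN22w. Per Alb UMI there were 0.165 UMIs of the summed genes in STAM20w, 7.31 in STAM16w, 0.170 in DEN30w and 0.392 in DEN22w.

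**Figure D1:**
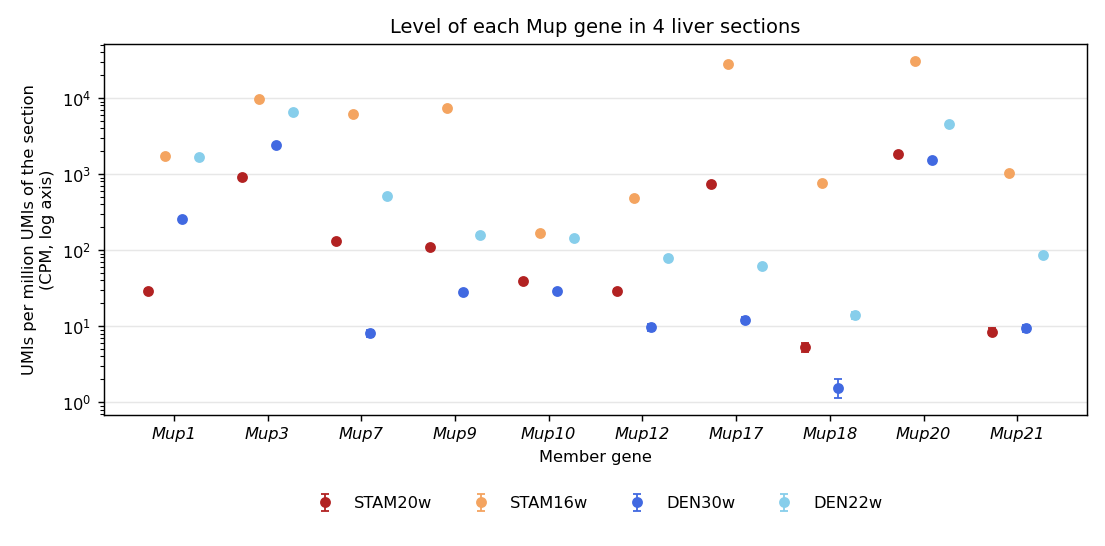
Level of each of the 10 Mup genes in the 4 sections, in CPM of the section on a log axis, with 1 point per section and 95% Poisson intervals that are mostly smaller than the points. STAM16w (light orange) is the highest point of every gene, from 169 CPM for Mup10 to 30829 CPM for Mup20.

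Mup20 and Mup3 were abundant in every section. Mup20 had 1835 CPM in STAM20w, 30829 CPM in STAM16w, 1541 CPM in DEN30w and 4612 CPM in DEN22w. Mup3 had 911 CPM in STAM20w, 9747 CPM in STAM16w, 2433 CPM in DEN30w and 6571 CPM in DEN22w. The 2 genes differed in their lowest section, which was DEN30w for Mup20 and STAM20w for Mup3, and the spread from lowest to highest section was 20.01-fold for Mup20 and 10.7-fold for Mup3.

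Among the central copies of the 10, Mup17 had the widest spread over the sections, 2349-fold. It had 749 CPM in STAM20w, 28348 CPM in STAM16w, 12.1 CPM in DEN30w and 61.0 CPM in DEN22w, so both STAM sections were above both DEN+CCl4 sections. Mup7 had 132 CPM in STAM20w, 6174 CPM in STAM16w, 8.03 CPM in DEN30w and 518 CPM in DEN22w. Mup9 had 110 CPM in STAM20w, 7377 CPM in STAM16w, 28.2 CPM in DEN30w and 160.2 CPM in DEN22w. For Mup7 and Mup9 the earlier DEN+CCl4 section was above the later STAM section, so the models overlapped.

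Mup1 had 28.8 CPM in STAM20w, 1712 CPM in STAM16w, 259.7 CPM in DEN30w and 1699 CPM in DEN22w. STAM16w and DEN22w did not differ beyond their counting intervals for Mup1, and its later STAM section was the lowest of the 4. Mup10 varied least, 5.83-fold, at 39.4 CPM in STAM20w, 169 CPM in STAM16w, 29.0 CPM in DEN30w and 143 CPM in DEN22w. Mup12, Mup18 and Mup21 peaked in STAM16w at 483, 760.5 and 1039 CPM, and their lowest sections had 9.69, 1.52 and 8.47 CPM. The lowest section was DEN30w for Mup12 and Mup18 and STAM20w for Mup21, whose level there did not differ from that of DEN30w, 9.43 CPM, beyond the counting intervals. All other neighbours in the order of sections had intervals that did not overlap, in each of the 10 genes.

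The share of spots with a UMI of a gene was compared after each spot was thinned to 2000 UMIs, which left out shallower spots and kept 2623 spots in STAM20w, 2038 in STAM16w, 2630 in DEN30w and 2547 in DEN22w. Mup17 was then seen in 64.9% of spots in STAM20w, 100% in STAM16w, 2.59% in DEN30w and 10.2% in DEN22w. Without thinning those shares were 89.4%, 100%, 13.0% and 34.5% in the same order of sections. Mup20 was seen after thinning in 90.4% of spots in STAM20w, 100% in STAM16w, 92.5% in DEN30w and 99.9% in DEN22w. Mup1 was seen in 5.41% of spots in STAM20w, 95.2% in STAM16w, 38.5% in DEN30w and 93.9% in DEN22w. Mup20 was thus near ubiquitous in all 4 sections, whereas the presence of Mup17 split by model and that of Mup1 by time.

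The later section of each model was compared with the earlier one. No replicate exists at any time, so these values compare sections and carry no test. In STAM, 10 of 10 genes were at least 2-fold lower in STAM20w than in STAM16w, against 3.71% of the 2775 genes that had 50 CPM or more in the higher section, and 0 were 2-fold higher, against 7.42%. The members' median log2 ratio was -5.39, against 0.19 over those 2775 genes. The sum was 22.5-fold lower, a log2 ratio of -4.49. The span of single genes ran from 4.28-fold lower for Mup10 to 144-fold lower for Mup18, whose interval was 126-fold to 166-fold. Ranked by how much lower they were, Mup18, Mup21 and Mup9 stood at places 2, 3 and 5 among the 2775 genes. Since the genes were picked on levels in these same sections, nothing is read from these counts.

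In DEN+CCl4, 9 of the 9 genes that reached 50 CPM in the higher section were at least 2-fold lower in DEN30w than in DEN22w, against 1.51% of 2906 genes, and 0 were 2-fold higher, against 2.58%. The remaining gene, Mup18, was below that level in both sections. The median log2 ratio of the 10 genes was -2.61, against 0.02 over the 2906 genes. The sum was 3.22-fold lower, a log2 ratio of -1.69. Mup7 stood at place 1 of all 2906 genes, 64.6-fold lower with an interval of 57.3-fold to 72.9-fold, while Mup3 was only 2.70-fold lower. Mup7 and Mup3 therefore differed by far more than their counting errors within one section pair. The 12 hepatocyte markers, by contrast, summed to 93231 CPM in STAM20w, 82708 CPM in STAM16w, 113573 CPM in DEN30w and 136846 CPM in DEN22w, a spread far smaller than that of the Mup genes.

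The make-up of the Mup RNA differed between the models more clearly than its amount. Mup17 took 19.5% of the UMIs of the 10 genes in STAM20w and 32.7% in STAM16w, against 0.279% in DEN30w and 0.438% in DEN22w. Mup3 took 23.7% in STAM20w and 11.3% in STAM16w, against 56.2% in DEN30w and 47.1% in DEN22w. Mup1 took 0.750% in STAM20w and 1.98% in STAM16w, against 5.997% in DEN30w and 12.2% in DEN22w. Mup20 held a similar share everywhere, 47.7% in STAM20w, 35.6% in STAM16w, 35.6% in DEN30w and 33.1% in DEN22w. Mup11, a central copy outside the 10 genes, behaved like Mup17, with 834 and 31800 CPM in STAM20w and STAM16w against 5.71 and 26.2 CPM in DEN30w and DEN22w. Mup11 thus had more UMIs in STAM16w than any of the 10 genes, and no threshold of level separates the 10 from the rest. Mup16, also outside them, had 57.7 and 1625 CPM in the STAM sections against 3.15 and 23.8 CPM in the DEN+CCl4 sections. Mouse strains are known to differ in the copies of this cluster, and the labels name no strain. Ifi202b, an interferon-inducible gene known to be silent in C57BL/6 mice and chosen here after its values were seen, had 0 UMIs in STAM20w and 0 in STAM16w, which allows up to 0.0750 and 0.145 CPM, against 152 UMIs in DEN30w and 67 in DEN22w. The part of strain in the make-up of the Mup RNA was not tested.

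**Figure D2:**
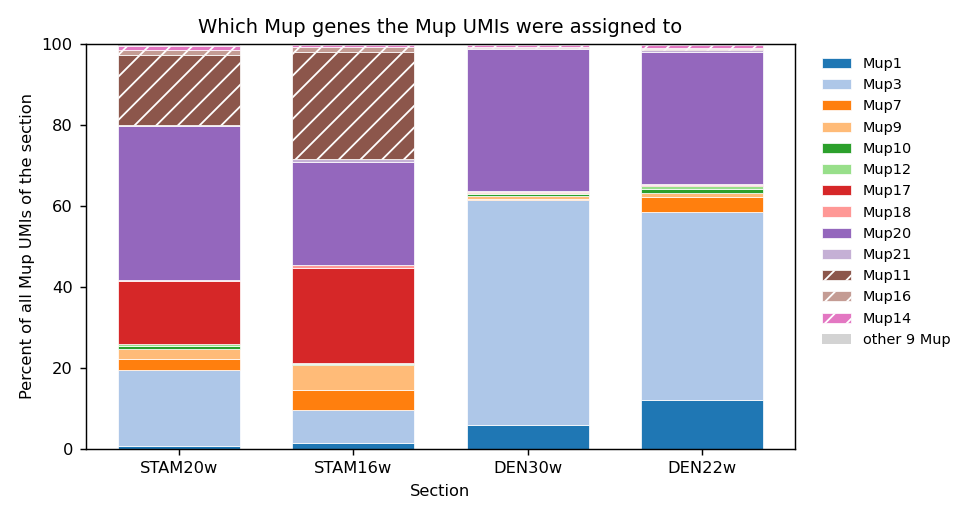
Share of the UMIs of all Mup genes assigned to each gene, in percent, for the 4 sections, with genes outside the 10 hatched or grey. Mup17 (red) and Mup11 (hatched brown) take 15.6% and 17.3% in STAM20w and 23.5% and 26.3% in STAM16w but under 1% each in the DEN+CCl4 sections, where Mup3 (light blue) takes 55.6% in DEN30w and 46.5% in DEN22w.

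Over whole sections the 2 STAM sections were set against the 2 DEN+CCl4 sections with edgeR's quasi-likelihood test on summed counts. The models share no time, so model and time cannot be told apart, and the labels name no animals, so a p-value here reflects only how far these 4 libraries spread. Of 14417 genes, 0.437% passed an adjusted p of 0.05. Of the 10 Mup genes, 0 passed, 3 had an unadjusted p under 0.05, as did 3305 of all genes, and DESeq2 called 1, Mup17. Over all genes DESeq2 called 1475 of 20484. The summed level averaged 45242 ± 58542 CPM in STAM and 9137 ± 6797 CPM in DEN+CCl4 (SD, n = 2 each). Mup17 averaged 14548 ± 19516 CPM in STAM and 36.5 ± 34.6 CPM in DEN+CCl4 (SD, n = 2 each), a fitted log2 fold change of 8.84 with a standard error (SE) of 2.16. The fitted values of Mup9 and Mup18 were 5.51 (SE 2.02) and 5.84 (SE 2.30), and those of Mup1, Mup3 and Mup10 were 0.02 (SE 1.66), 0.45 (SE 1.12) and 0.45 (SE 0.95). All 10 fitted values were positive, with a median of 3.19 against -0.0016 over all genes. This rests on STAM16w: without it, only Mup9 and Mup17 of the 10 stayed positive, and Mup17 was at 4.40. Without DEN30w, 7 of 10 were positive.

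Liver lobules are zoned from the portal inflow to the central vein. Spots of each section were ranked by 12 pericentral minus 12 periportal marker genes and divided into 3 equal zones, with Mup genes left out of the score and of the totals behind it. Of the pericentral markers, 11 could be used in the DEN+CCl4 sections and 12 in the STAM sections. Of the kept spots, 437 of 2833 in STAM20w, 248 of 2080 in STAM16w, 382 of 2968 in DEN30w and 361 of 2746 in DEN22w lay within 0.1 SD of a zone border.

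As a share of all UMIs, the summed Mup level was about even across zones in STAM and lower pericentrally in DEN+CCl4. In STAM20w it was 3697 CPM in pericentral and 3740 CPM in periportal spots, and in STAM16w 87089 and 83574 CPM. In DEN30w it was 3674 CPM in pericentral and 5047 CPM in periportal spots, and in DEN22w 11078 and 16062 CPM. The log2 ratios of pericentral over periportal level were -0.02 in STAM20w, 0.06 in STAM16w, -0.46 in DEN30w and -0.54 in DEN22w. The middle zone lay between the others in both DEN+CCl4 sections and in neither STAM section. The evenness in STAM20w depended on its compact regions, patches that are described with the regions, without which its ratio was -0.27.

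Mup21 and Mup3, the divergent genes at the end of the cluster, were lower in pericentral spots in every section. The central copy Mup18 was too, at log2 ratios of -0.65 in STAM20w, -0.10 in STAM16w, -0.93 in DEN30w and -1.24 in DEN22w. Its interval in DEN30w, with 12 pericentral and 28 periportal UMIs, included 0. Mup20, also at the end of the cluster, was not lower in every section. Mup21 had 6.91 CPM in pericentral and 10.4 CPM in periportal spots of STAM20w, 691 and 1471 CPM in STAM16w, 5.98 and 13.5 CPM in DEN30w, and 42.2 and 119 CPM in DEN22w. Mup3 had 678 CPM in pericentral and 1023 CPM in periportal spots of STAM20w, 8711 and 10678 CPM in STAM16w, 1764 and 3141 CPM in DEN30w, and 4860 and 7873 CPM in DEN22w. The periportal side was therefore up to 2.82-fold higher for Mup21 and up to 1.78-fold higher for Mup3.

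Mup9 and Mup17 lay on the other side in STAM16w. There Mup9 had 9354 CPM in pericentral and 5140 CPM in periportal spots, and Mup17 had 31300 and 23359 CPM. Their log2 ratios were 0.86 and 0.42 in STAM16w, against -0.74 and -0.40 in DEN30w and -0.37 and -0.20 in DEN22w. In STAM20w they were -0.19 and -0.33, and that of Mup9 was 0.01 without the compact regions. Mup9 and Mup21 thus ran opposite ways across the lobule of one section: in STAM16w, the correlation with the zone score over its 2080 spots, which share one library, was 0.52 for Mup9 and -0.48 for Mup21.

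The zone ratio of Mup20 had opposite signs in the sections of each model. It had 2131 CPM in pericentral and 1605 CPM in periportal spots of STAM20w, 27722 and 34133 CPM in STAM16w, 1641 and 1460 CPM in DEN30w, and 4046 and 5086 CPM in DEN22w. The log2 ratio was 0.41 in STAM20w, and -0.18 there without the compact regions, -0.30 in STAM16w, 0.17 in DEN30w and -0.33 in DEN22w. The number of genes of the 10 with a ratio below 0 was 9 in STAM20w, 4 in STAM16w, 9 in DEN30w and 10 in DEN22w.

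**Figure D3:**
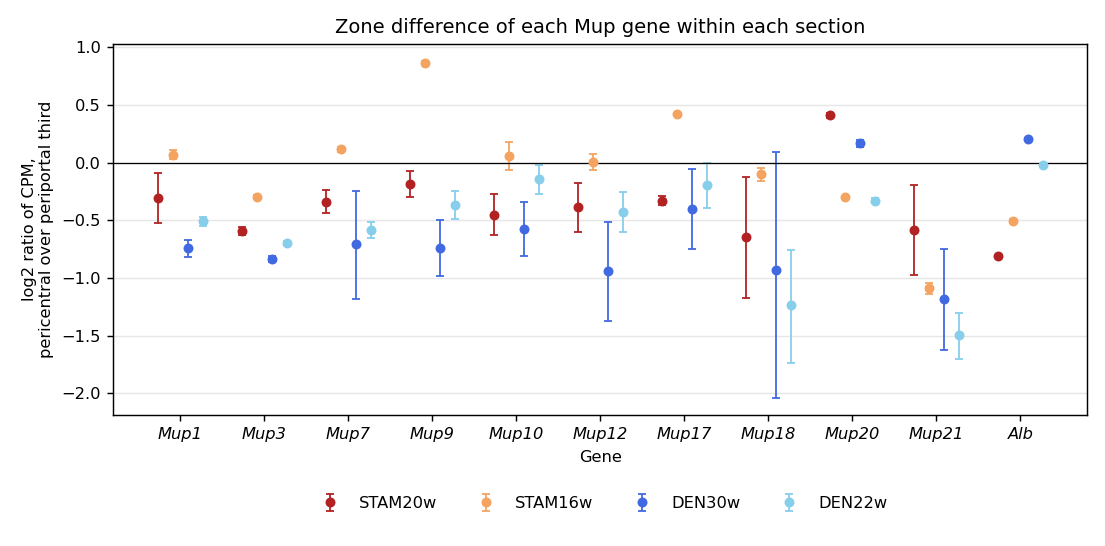
Log2 ratio of the level in the pericentral over the periportal zone for each Mup gene and for Alb, with 1 point per section and 95% binomial intervals of the counts. Mup3, Mup18 and Mup21 lie below 0 in all 4 sections, and Mup9 lies at 0.86 in STAM16w but at -0.74 in DEN30w.

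The zone difference was fitted over 4 sections with edgeR, each section serving as its own block. The fit scales each library by a TMM factor and the CPM ratios do not, so fitted values can differ from the ratios printed beside them. Of 12681 genes, 8.45% passed an adjusted p of 0.05, 4.71% with a lower and 3.75% with a higher pericentral level. Of the 10 Mup genes, 3 were called, Mup1, Mup3 and Mup21, each lower pericentrally, and DESeq2 called 5. Over all genes DESeq2 called 682 of 19948. The Mup genes were picked on levels in these same sections, so their calls in this and the other fits are a description. The fitted log2 fold changes were -0.52 (SE 0.14) for Mup1, -0.75 (SE 0.13) for Mup3 and -1.26 (SE 0.14) for Mup21, and the median of the 10 was -0.48 against -0.02 over all genes. Without STAM16w, 9 of the 10 were called, against 1011 of 12968 genes. Without DEN30w only Mup21 was, against 502 of 12342 genes. Mup1 also lost its call without DEN22w and with Mup UMIs out of the totals. Without the section block edgeR called 0 of the 10 and 0 of all 12681 genes. Depth and cell content moved with zone. The median UMIs per spot were 8244 in pericentral and 11105.5 in periportal spots of DEN30w, and 5853 and 9858 in DEN22w. The 8 stellate and fibroblast markers summed to 794 and 321 CPM in those zones of DEN30w and to 498 and 220 CPM in DEN22w. The 7 macrophage markers summed to 587 and 333 CPM in DEN30w and to 615 and 294 CPM in DEN22w. Hepatocyte markers summed to 110100 and 114653 CPM in DEN30w and to 128716 and 142438 CPM in DEN22w, against 74697 and 110820 CPM in STAM20w and 75592 and 91019 CPM in STAM16w. With the spots of both zones matched on depth, the summed Mup ratio was -0.47 in DEN30w and -0.50 in DEN22w. Per Alb UMI, over all spots of a zone, there were 0.217 UMIs of the summed genes in pericentral and 0.125 in periportal spots of STAM20w, 8.65 and 5.85 in STAM16w, 0.137 and 0.217 in DEN30w, and 0.315 and 0.448 in DEN22w. Measured against Alb, the sum was therefore higher pericentrally in both STAM sections and lower in both DEN+CCl4 sections. Alb itself had 17074 CPM in pericentral and 29993 CPM in periportal spots of STAM20w, and 10072 and 14289 CPM in STAM16w. It had 26903 and 23278 CPM in DEN30w and 35223 and 35818 CPM in DEN22w. The STAM ratios to Alb thus reflect the lower pericentral Alb, as the summed Mup CPM was about even there. The part of other cells in the zone difference was not tested.

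Whether the zone difference itself differed between the models was fitted as an interaction. Of 12681 genes, 0.15% passed an adjusted p of 0.05, 0.0394% with a positive value. Of the 10 Mup genes, 0 passed with edgeR and 0 with DESeq2, and 7 had an unadjusted p under 0.05, as did 1798 of all genes. In simulated data, with the same spread set for every gene, edgeR recovered only 10% of interactions of 1 on the log2 scale. The rate in the real data may differ, and a lack of calls says little here. All 10 interaction values were positive, that is, the pericentral side stood relatively higher in STAM than in DEN+CCl4. They ran from 0.29 (SE 0.25) for Mup20 to 1.10 (SE 0.26) for Mup18, with a median of 0.60 against 0.04 over all genes. With the compact regions left out, an alternative added after the data were seen, edgeR called 4 of the 10, Mup1, Mup7, Mup9 and Mup18, and the value of Mup20 was -0.04, so 9 of 10 were positive.

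Spots differed within each section. The summed level of single spots had a 10th percentile, median and 90th percentile of 1407, 3294 and 5934 CPM in STAM20w, of 66135, 85401 and 105695 CPM in STAM16w, of 2581, 4067 and 6044 CPM in DEN30w, and of 8966, 13124 and 17492 CPM in DEN22w. The relative spread was thus widest in STAM20w and narrowest in STAM16w. Counting error is part of this spread and is larger where fewer UMIs were caught. The summed genes had 153910 UMIs over 2833 spots in STAM20w and 1793458 over 2080 in STAM16w. They had 151073 over 2968 in DEN30w and 313321 over 2746 in DEN22w. Moran's I, which is near 0 for a scattered pattern and rises as neighbouring spots resemble each other, was 0.57 for the sum in STAM20w, 0.64 in STAM16w, 0.23 in DEN30w and 0.37 in DEN22w. It moves with depth, as few counts per spot scatter at random: for Mup17 it was 0.56 and 0.60 in the STAM sections but 0.01 and 0.06 in DEN30w and DEN22w, where few of its UMIs were caught.

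**Figure D4:**
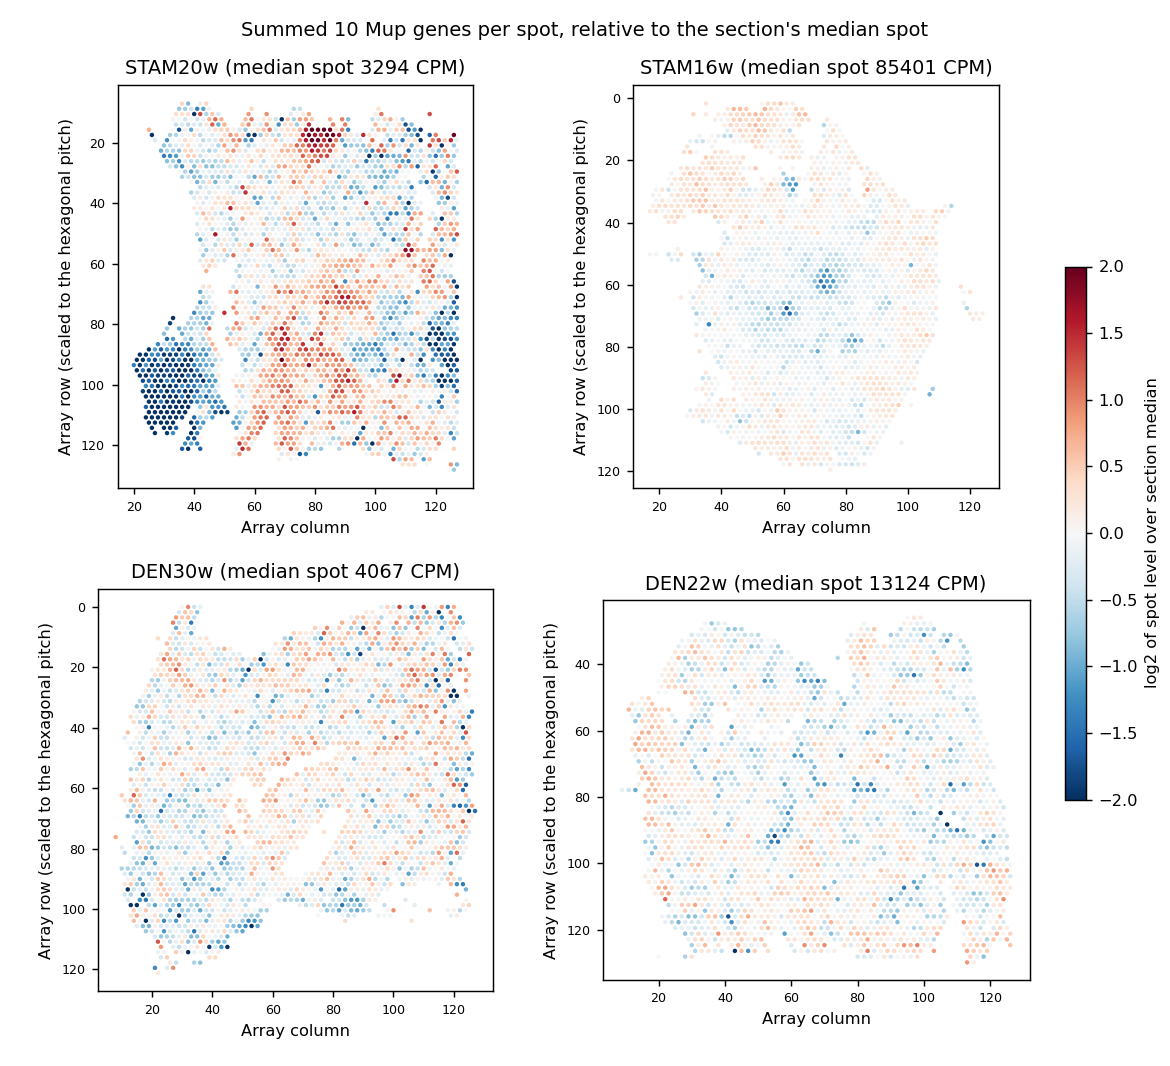
Summed level of the 10 Mup genes in each kept spot, as log2 of the spot's level over its section's median spot, drawn at the spot's place on the array. STAM20w shows a block of low spots at the lower left, while most spots of the other sections depart less from their median and STAM16w shows a few small low patches.

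Regions were found in each section by clustering its spots without any Mup gene, and are called by their leading genes. In STAM20w the lowest was a patch of 220 spots led by H19 and Afp, genes of the fetal liver that are known to return in liver tumours. It had 1172 CPM of summed Mup RNA, against 4084 CPM in the rest of the section, 3.48-fold lower. All 10 genes were lower in it than in the rest. Alb was higher there by 0.57 on the log2 scale and the hepatocyte markers summed to 103023 CPM, so these spots held hepatocyte RNA. Of the 283 spots in the lowest 10% of STAM20w, 158 lay in this patch and 42 in a region of 82 spots led by Fgfbp1 and Ankrd1, whose summed Mup level was 2182 CPM against 3867 CPM in the rest and whose median depth was 3841.5 UMIs.

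A patch of 275 spots led by Cpe and Slc7a11 differed more in make-up than in amount. Its summed Mup level was 3595 CPM (interval 3550 to 3640), a little below the 3899 CPM of the rest of STAM20w. The log2 ratio of Alb there to the rest was -0.84. Per Alb UMI the patch had 0.255 UMIs of the summed genes, more than the 0.165 of the whole section. Mup20 took 74.4% of the Mup UMIs in that patch, with 2675 CPM, and Mup17 only 8.43%, with 303 CPM. Of the 10 genes, 9 were lower in it than in the rest, Mup20 being the exception. A patch of 260 spots led by Akr1c18 and Cib3 had 2852 CPM against 3894 CPM in the rest, with 64.7% from Mup20 and 11.2% from Mup17. In the largest region, 868 spots led by Cyp17a1 and Ces3b, the sum was 4230 CPM against 3654 CPM in the rest, with 40.7% from Mup20 and 23.1% from Mup17. The patches led by Cpe and by Akr1c18 thus both had a higher share of Mup20 and a lower share of Mup17 than the largest region. Nearly all spots of the Cpe patch, 99.3%, fell in the pericentral zone, which bears on the zone ratio of Mup20 in this section. Of the H19 patch, lowest in Mup RNA, 72.3% of spots fell in the periportal and 0.909% in the pericentral zone. That bears on the zone ratios of the sum and of single Mup genes there.

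**Figure D5:**
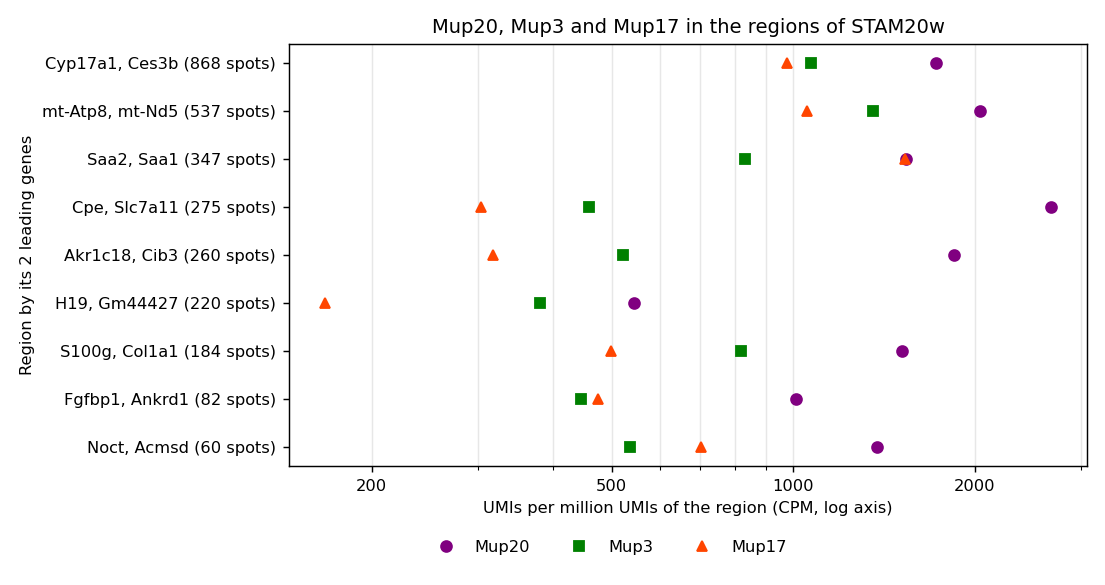
Level of Mup20, Mup3 and Mup17 in the 9 regions of STAM20w, in CPM of the region on a log axis, with each region called by its 2 leading genes. Mup17 is at 303 CPM and Mup20 at 2675 CPM in the Cpe region, and all 3 genes are lowest in the H19 region.

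STAM16w had no compact region, but a cluster of 19 spots led by Ptgds, Gstm3 and Cyp2a4, with Cib3 and Afp next, had 61440 CPM of summed Mup RNA against 86858 CPM in the rest, 1.41-fold lower. Its Alb was higher by 0.95 on the log2 scale, Mup20 took 51.4% of its Mup UMIs, and 9 of the 10 genes were lower in it than in the rest. In DEN30w and DEN22w the larger regions differed in zone and in Mup level. The region of 1189 spots led by Meg3 and Cyp2a5 in DEN30w had 3589 CPM against 4847 CPM in the rest, and the region of 980 spots led by Gstm3 and Gstm2 in DEN22w had 11314 CPM against 15286 CPM in the rest. Most spots of these regions lay in the pericentral zone, 56.8% in DEN30w and 66.6% in DEN22w. Other regions did not follow the zones: a region of 224 spots in DEN30w led by Hbb-bt and Hba-a1, globin genes of red cells, was 41.1% pericentral and 17.0% periportal and had the highest sum of that section, 5082 CPM against 4199 CPM in the rest. Its counterpart of 140 spots in DEN22w was 59.3% pericentral and had 15053 CPM against 13876 CPM in the rest. In DEN22w, 198 of the 274 spots in the lowest 10% lay in the region led by Gstm3 and Gstm2. Of the highest 10%, 195 lay in the region of 1079 spots led by Pck1 and Etnppl.

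The members did not vary as one across spots. Over the 45 pairs of genes the median correlation of spot levels was 0.13 in STAM20w, 0.27 in STAM16w, 0.03 in DEN30w and 0.12 in DEN22w, over 2833, 2080, 2968 and 2746 spots that share a library and carry few counts of the rarer genes. In STAM16w, where every gene was best counted, Mup9 and Mup17 were at 0.77, Mup7 and Mup17 at 0.73, Mup3 and Mup20 at 0.57, and Mup9 and Mup21 at -0.22. Mup7 and Mup9 were at 0.51, so Mup7, Mup9 and Mup17 varied together. They were not set apart, as Mup3 and Mup7 were at 0.55 and Mup1 and Mup17 at 0.52. The scarce central copy Mup10 was at no more than 0.14 with any other gene. Mup21 was at 0.39 with Mup3 and 0.31 with Mup20, but at 0.14 with Mup7 and -0.07 with Mup17. In both DEN+CCl4 sections, where the central copies Mup9 and Mup17 were scarce but Mup1 was less so, the highest pairs held Mup3. It was at 0.25 with Mup1 in DEN30w and at 0.44 with Mup20 in DEN22w. These values describe spots and carry no test.

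Among 1951 genes with 50 CPM or more in each section, those whose spot levels were most like the summed Mup level in all 4 sections were Serpina1c, Serpina3k, Serpina1d, Serpina1b and Cps1. Serpina1b, Serpina1c and Serpina1d encode mouse forms of alpha-1-antitrypsin, a secreted protease inhibitor, and Cps1 the first enzyme of the urea cycle, which is also one of the zone markers. The correlation of Serpina1c was 0.31 in STAM20w, 0.32 in STAM16w, 0.34 in DEN30w and 0.61 in DEN22w. The least alike were Tmsb10, Gm47283 and Cd74, at -0.39, -0.15 and -0.12 in STAM20w, and Cd74 belongs to antigen-presenting cells. The pericentral gene Cyp2e1 was at 0.40 in STAM20w and 0.19 in STAM16w, against -0.12 in DEN30w and -0.32 in DEN22w. The periportal gene Cyp2f2 was above 0 in all 4 sections, at 0.28 in STAM20w and 0.03 in STAM16w, against 0.31 in DEN30w and 0.46 in DEN22w.

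Genes of the growth hormone pathway, which maintains Mup expression, were examined beside the members. Of 12 growth hormone signalling genes, 0 passed the test between the models with edgeR, 4 had an unadjusted p under 0.05 and DESeq2 called 3, Onecut1, Cish and Bcl6. Across zones 2 of the 12 fell in pericentral spots and 0 rose, against 4.71% and 3.75% of all 12681 genes. Igf1, the growth factor that liver releases in response to growth hormone, fell by 0.72 on the log2 scale (SE 0.09, adjusted p = 0.000645, edgeR). It had 369 CPM in pericentral and 645 CPM in periportal spots of STAM20w, 363 and 526 CPM in STAM16w, 519 and 721 CPM in DEN30w, and 521 and 726 CPM in DEN22w, so it was lower pericentrally in 4 of 4 sections. Igfals, its binding partner in serum, fell by 0.31 (SE 0.08, adjusted p = 0.0287, edgeR), a call that held under 5 of 12 alternatives. The log2 ratios of CPM of Igfals were -0.15 in STAM20w, -0.25 in STAM16w, -0.02 in DEN30w and -0.26 in DEN22w, each a smaller fall than the fitted value. Between times the receptor gene Ghr had 82.3 CPM in STAM20w and 218 CPM in STAM16w, against 229 CPM in DEN30w and 269.7 CPM in DEN22w. It was the only one of 3 genes of this list with 50 CPM or more that was at least 2-fold lower in STAM20w, against 3.71% of 2775 genes. In DEN30w 0 of 5 were so, against 1.51% of 2906 genes. Igf1 went the other way, with 523 CPM in STAM20w and 438 CPM in STAM16w. Below 50 CPM, Cish had 22.4 and 6.33 CPM and Socs2 12.4 and 4.83 CPM in these sections, while Bcl6 had 5.72 and 20.8 CPM. The list thus did not move in a single direction.

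Of 16 hepatocyte transcription factors, 0 passed between the models with edgeR, 6 had an unadjusted p under 0.05 and DESeq2 called 4. Across zones 1 of the 16 passed, against 8.45% of all genes. Cebpa, a factor of hepatocyte identity, fell in pericentral spots by 0.33 on the log2 scale (SE 0.08, adjusted p = 0.0336, edgeR). It had 106 CPM in pericentral and 107 CPM in periportal spots of STAM20w, 167 and 209 CPM in STAM16w, 201 and 231 CPM in DEN30w, and 313 and 361 CPM in DEN22w. Its log2 ratios of CPM were -0.02 in STAM20w, -0.32 in STAM16w, -0.21 in DEN30w and -0.20 in DEN22w, each a smaller fall than the fitted value. Onecut1, which encodes the factor named with the promoters, had 5.45 CPM in STAM20w, 7.54 CPM in STAM16w, 1.52 CPM in DEN30w and 1.16 CPM in DEN22w.

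Other genes of the male pattern of liver expression, which the same hormone pulses maintain, were lower in the later STAM section too, and less uniformly so in the later DEN+CCl4 section. Of the 11 male-biased genes with 50 CPM or more in the higher STAM section, 11 were at least 2-fold lower in STAM20w, with a median log2 ratio of -3.31, and 3 of 7 were so in DEN30w, where 2 of 7 were above their DEN22w level and the median was -0.48. Over all genes at that level the shares were 3.71% in STAM20w and 1.51% in DEN30w. Selenbp2, a selenium-binding protein, had 23.0 CPM in STAM20w and 621 CPM in STAM16w, against 95.8 CPM in DEN30w and 392 CPM in DEN22w. Slco1a1, an organic anion transporter, had 0.150 CPM in STAM20w and 121 CPM in STAM16w, against 0.430 CPM in DEN30w and 26.3 CPM in DEN22w. Of the 4 female-biased genes with 50 CPM or more in the higher STAM section, 4 were at least 2-fold higher in STAM20w, against 7.42% of all genes at that level. Among them the cytochrome Cyp2b9 had 456 CPM in STAM20w and 38.5 CPM in STAM16w. DEN30w and DEN22w had 4.33 and 6.41 CPM of Cyp2b9. These lists were compared over 1 section per time and carry no test, and Ghr, Cish, Socs2, Bcl6, Slco1a1, Cyp2b9 and Lcn2 are named after their values were seen.

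Between the models 1 of 14 tested female-biased genes rose in STAM, against 0.291% of all genes. It was Cyp2a4, a cytochrome of steroid hydroxylation, with 373 and 169 CPM in STAM20w and STAM16w against 15.6 and 10.0 CPM in DEN30w and DEN22w (log2 fold change 4.56, SE 0.45, adjusted p = 0.0322, edgeR). Its reads may be shared with the near-identical Cyp2a5. Of the 14, 9 had an unadjusted p under 0.05, as did 3305 of all 14417 genes. DESeq2 called 9 of the 19 genes of the female-biased list, against 1475 of 20484 genes in all. Those 9 include Cyp2b10, which was higher in DEN+CCl4. Of 16 male-biased genes tested between the models, 0 passed with edgeR, 3 had an unadjusted p under 0.05 and DESeq2 called 2, Susd4 and Nat8. Across zones 5 of 16 male-biased genes fell in pericentral spots and 3 rose, against 4.71% and 3.75% of all genes. Selenbp2 fell by 0.71 (SE 0.09, adjusted p = 0.000746), Cyp2u1 by 0.64 (SE 0.09, adjusted p = 0.00108) and C8b by 0.66 (SE 0.11, adjusted p = 0.00403), all with edgeR.

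The lipocalin relatives of the Mup genes took another course over time. Of 8 with 50 CPM or more, 0 were at least 2-fold lower in STAM20w and 0 in DEN30w, while 3 were at least 2-fold higher in STAM20w and 4 in DEN30w. Over all genes at that level, 3.71% and 1.51% were lower and 7.42% and 2.58% higher in those sections. Lcn2, a lipocalin of the acute phase that binds bacterial iron carriers, had 1169 CPM in STAM20w and 129.8 CPM in STAM16w, against 997 CPM in DEN30w and 15.8 CPM in DEN22w. Orm1, an acute phase plasma carrier, had 2254 CPM in STAM20w and 1287 CPM in STAM16w, against 2668 CPM in DEN30w and 809 CPM in DEN22w. Across zones 6 of 9 tested lipocalin relatives fell in pericentral spots and 0 rose, against 4.71% and 3.75% of all genes. Among those that fell were Orm1 by 0.75 on the log2 scale (SE 0.10, adjusted p = 0.00122, edgeR) and Ptgds, a prostaglandin synthase, by 1.16 (SE 0.18, adjusted p = 0.00221, edgeR). Of 12 general hepatocyte genes, 6 fell in pericentral spots and 0 rose, against the same shares, so a lower pericentral level was shared by many genes of hepatocytes.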

How the data were processed

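Visium libraries of 4 frozen mouse liver sections were analysed. The authors deposited whole-number UMI counts per gene and spot, with spot positions; per the submitters' processing notes they were made with Space Ranger 1.3.1 and STAR on mm10. The members and all gene lists were chosen with earlier results of these data known. The rule named the 10 members, at most 4 genes per list and fitted comparison that passed by smallest p, and the genes most and least alike the summed members over spots.

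Spots over tissue with at least 500 UMIs and 250 genes were kept: 2833 of 2895 in STAM20w, 2080 of 2082 in STAM16w, 2968 of 3073 in DEN30w and 2746 of 2804 in DEN22w. No doublet caller was run, since spots are not cells. Depth was 40008457 UMIs in STAM20w, 20700642 in STAM16w, 34880049 in DEN30w and 22471682 in DEN22w. Counts were summed per section or zone and tested with edgeR 4.0.16 (TMM factors, filterByExpr, quasi-likelihood test, Benjamini-Hochberg over all genes), with DESeq2 1.42.0 as an alternative. The fits were tested on simulated data with known changes, in which the sections had no differences of their own. Changes of 1 on the log2 scale were recovered in 21.4% of changed genes between models, 76.5% between zones and 10% for the interaction. Changes of 2 were recovered in 97.3%, 100% and 59.1%. Every simulated gene was given the same spread beyond counting error, so these rates need not hold for genes that vary more. Between models Mup9, Mup17 and Mup18 had SEs of 2.02, 2.16 and 2.30. Regions were Leiden clusters (scanpy 1.11.5, resolution 0.5, 30 principal components, 15 neighbours, 2000 variable genes) of each section without Mup genes. A compact region held at most 10% of spots with at least 70% of its contacts inside. Intervals are exact at 95%, Poisson for CPM and binomial for ratios and shares. Spot correlations used log(1 + UMIs per 10000 non-Mup UMIs). Promoter and gene positions come from RefSeq tables of GRCm38.p6, the assembly behind mm10.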

Additional observations from a re-analysis of the deposited data

Results flagged for a closer look

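The zone difference of Nat8, a male-biased acetyltransferase gene, differed between the models by a test of the difference itself. The interaction was 1.82 on the log2 scale (SE 0.20, adjusted p = 0.0118, edgeR), with an adjusted p of at most 0.0101 under 5 of 5 alternatives. Nat8 had 14.2 CPM in pericentral and 3.37 CPM in periportal spots of STAM20w and 23.7 and 9.01 CPM in STAM16w, against 50.8 and 46.4 CPM in DEN30w and 43.2 and 44.5 CPM in DEN22w. It was the only gene of the male-biased list to pass that test, and 0 of the 10 Mup genes did.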

How the results depend on the processing

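No paired analysis was possible because each model and time has 1 section and the replicate numbers pair nothing; sections were blocks in the zone fits. Calls between models numbered 63, against 1475 with DESeq2, 1872 with no filter on low counts and 2 to 922 with 1 section left out (922 without STAM16w, 71 without STAM20w, 5 without DEN22w, 2 without DEN30w), where the lone section is assumed to vary like the others. Calls between zones numbered 1072, against 682 with DESeq2, 1791 with no filter, 502 to 1109 with 1 section left out (517 without DEN22w, 502 without DEN30w) and 0 without the section block, where 336 genes had an unadjusted p under 0.05. Interaction calls numbered 19, against 552 with no filter and 117 without compact regions, a setting added after the data were seen. The summed Mup level of STAM20w was 4357 CPM without compact regions. Its log2 ratio to STAM16w was -4.67 with Mup UMIs out of the totals, -4.31 without compact regions and -4.70 by the median spot; that of DEN30w to DEN22w was -1.70 with Mup UMIs out. With no filter, edgeR called 7 of the 10 Mup genes between models and 7 for the interaction. The causes were not tested. Of 80 alternative member values between models 64 moved by at most 1 SE and 11 changed sign; of 120 between zones 98 and 4; of 50 interaction values 49 and 1. Cyp2a4 lost its call without DEN22w or without DEN30w, and Cebpa under 5 of 12 alternatives. Depth limits Mup18, with 53 UMIs in DEN30w.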
